A study of Mus musculus with 6 samples.

Results

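The RGD-binding and alpha-v integrins are cell surface receptors made of an alpha and a beta chain, and 7 of their subunit genes were followed here: Itgav, Itga5 and Itga8 for the alpha chains and Itgb1, Itgb3, Itgb5 and Itgb8 for the beta chains. They were taken by symbol from the deposited count table of immortalized mouse pancreatic fibroblasts, where all 7 are among the 14831 genes listed and all 7 passed the expression filter that left 14289 genes to test. All had counts in every library. A gene is called here at an edgeR adjusted p under 0.05 and a difference of at least 1.5-fold. By this rule 4 of the 7 were called, beside 17.7% of all genes tested. Itgav was higher in the KO-labelled libraries, and Itgb8, Itga8 and Itgb3 were lower.

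Integrins link the extracellular matrix to the actin cytoskeleton. The alpha-v chain pairs with several beta chains, while alpha5 and alpha8 pair with beta1, and all of these pairs recognise the Arg-Gly-Asp (RGD) motif of ligands such as fibronectin and vitronectin. The pairs of alpha-v with beta8 and with beta6 are best known for binding the RGD site of the latency peptide of TGF-beta and so releasing the active growth factor, a step that fibroblasts also perform through the pairs of alpha-v with beta1, beta3 and beta5. Alpha8 is a receptor chain of mesenchymal cells, and alpha5 with beta1 is the main receptor through which fibroblasts assemble fibronectin fibrils.

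RNAseq was performed on 6 libraries, each from its own well of confluent fibroblasts in medium with calf serum. The 3 WT-labelled libraries and the 3 labelled KO (genotype Gli2-/-;Gli3-/-) are of mixed strain. The paper describes fibroblast lines grown out of the adult pancreas of Gli fl/fl mice and immortalized. They were then infected with a GFP adenovirus and a dsRed lentivirus as control, or with GFP and Cre adenoviruses for the knockout. Per the paper, infected cells were sorted by flow cytometry and then checked for recombination with qPCR and western blot. Both kinds of line would therefore descend from cells with floxed alleles, and how many clones or parental lines stand behind the wells is not given in the sources used here, so p-values measure the spread between wells and not between independently derived lines. Libraries held between 31728420 and 41035931 counts on genes. Replicate libraries differed by more than sampling noise in every pair (chi-square per degree of freedom of 2.47 to 7.53), so all 6 were kept.

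The targeted genes go against the labels. Gli2 had 809, 944 and 868 counts in WT-labelled libraries and 1932, 2316 and 1926 in KO-labelled ones, and Gli3 had 392, 416 and 398 against 1434, 1637 and 1404. These are counts over whole genes, in which the floxed exons cannot be told from the rest. For this reason the groups are given by their labels alone, and directions follow the labels. Were the labels exchanged between the groups, the sign of every fold change given here would turn, and whether they are was not tested. The labelled cell type was checked as well: Col1a1 and Col1a2, the chains of collagen I, were at no less than 15334 and 11285 CPM (counts scaled to library size) in any library, and of the 7 fibroblast markers tested 1 was called higher (S100a4) and 3 lower (Col3a1, Pdgfra and Pdgfrb) in the KO-labelled libraries. Over all genes tested, 11.6% were called higher and 6.10% lower. Of the other fibroblast markers, Thy1 was at no more than 0.537 CPM in any library and was not tested. Fap and Pdpn are not among the genes listed under these symbols, and neither are Pecam1, Ptprc, Adgre1 and Epcam. Mesothelial markers moved with the groups: Msln, Upk3b, Wt1 and Lrrn4, 4 of 4, were called higher in the KO-labelled libraries, where their summed level was 267 CPM in each library against 21.5 to 24.4 CPM in those labelled WT. Of the 3 epithelial markers tested, Krt7 (log2 fold change 2.40) and Cdh1 (1.08) were called higher, while Sox9 was not called at -0.50. The summed level of the epithelial markers was 12.8 to 13.8 CPM in the WT-labelled and 29.5 to 30.4 CPM in the KO-labelled libraries. The macrophage markers, mostly Lyz2, summed to 38.3 to 44.4 and 37.1 to 38.5 CPM. Of the endothelial, acinar and pericyte lists only Vwf, Cela1 and Cnn1 are among the genes listed. Cela1 (log2 fold change 0.87, 7.36 to 8.84 against 13.6 to 15.4 CPM) and Cnn1 (0.72, 5.14 to 7.75 against 10.7 to 10.9 CPM) were called higher in the KO-labelled libraries, and Vwf was not called. The glial markers summed to no more than 4.86 CPM. The part of these differences in the integrin results was not tested, and in bulk RNA fewer cells of a type and less RNA per cell cannot be told apart.

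The sequence just upstream of the start of 3 member genes is shown because Itgav and Itga8 changed in opposite directions while Itgb5, a beta partner of alpha-v, stayed under the fold limit. Each run is the 250 bases before the RefSeq transcription start (GRCm38.p6), 5′ to 3′ on the gene's own strand, and capitals mark GC boxes (GGGCGG on either strand).
Itgav (chr2:83724147-83724396, plus strand): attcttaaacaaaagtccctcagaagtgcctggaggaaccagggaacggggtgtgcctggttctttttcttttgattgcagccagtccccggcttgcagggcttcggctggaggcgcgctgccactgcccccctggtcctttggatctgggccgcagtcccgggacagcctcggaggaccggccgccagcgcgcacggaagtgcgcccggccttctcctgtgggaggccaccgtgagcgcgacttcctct
Itga8 (chr2:12301945-12302194, minus strand): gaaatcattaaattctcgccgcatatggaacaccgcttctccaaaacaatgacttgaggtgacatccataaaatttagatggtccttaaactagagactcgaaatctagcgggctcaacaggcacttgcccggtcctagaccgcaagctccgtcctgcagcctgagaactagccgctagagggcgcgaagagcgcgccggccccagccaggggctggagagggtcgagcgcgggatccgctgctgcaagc
Itgb5 (chr16:33829415-33829664, plus strand): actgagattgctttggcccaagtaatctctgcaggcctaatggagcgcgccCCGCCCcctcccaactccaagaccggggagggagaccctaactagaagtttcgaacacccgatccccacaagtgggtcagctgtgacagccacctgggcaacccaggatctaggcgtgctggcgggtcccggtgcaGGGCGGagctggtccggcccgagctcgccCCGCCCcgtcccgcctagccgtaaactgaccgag

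Upstream windows were found for 6 of the 7 members, Itgb3 being the one without a match. The window of Itgb5 has 3 GC boxes, that of Itga5 has 2 and that of Itgb1 has 1, whereas those of Itgav, Itga8 and Itgb8 have none; 32.7% of all 32851 windows of this length hold at least 1. The core letters of the GLI binding motif, CCACCCA on either strand, are in none of the 6 windows and in 8.11% of all windows. The AP-1 letters TGACTCA are likewise in none of the 6 and in 4.46% of all. The CCAAT box is in the window of Itgb8 alone among the members and in 33.8% of all windows. For Itgb8 the RefSeq start lies 526 bases inside the first exon of GENCODE M21, so its window is transcribed sequence in that annotation and is not printed. These matches are a description of short windows and say nothing of the binding of a factor.

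Levels were compared between genes as CPM per kilobase of annotated exon, with the exons of all transcripts of a gene merged. This lowers the level of a gene whose longest transcript is much shorter, such as Itgav (7054 of 10744 bases). In the WT-labelled libraries the order was Itgb1 (455 ± 2.77, SD, n = 3), Itgb5 (153 ± 6.13), Itga5 (47.1 ± 3.90), Itgav (25.1 ± 0.0851), Itgb3 (7.41 ± 0.30), Itgb8 (3.83 ± 0.209) and Itga8 (0.363 ± 0.0550). No neighbours in that order overlapped between libraries. In the KO-labelled libraries, Itgav (59.6 ± 1.25) stood above Itga5 (43.0 ± 0.889), and Itgb8 (0.0252 ± 0.00653) stood below Itga8 (0.103 ± 0.0232), again with no overlap between neighbours. Beta1 transcripts, which serve every beta1 integrin of the cell and not only the RGD-binding ones, were thus the most abundant of the family in both groups, and beta8 went from the sixth place to the last.

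**Figure D1:**
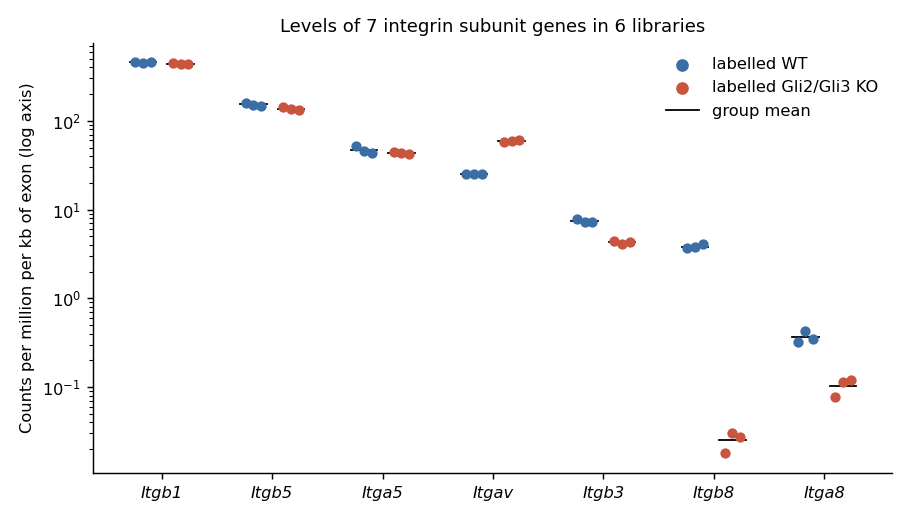
Level of each of the 7 subunit genes in each of the 6 libraries, as CPM per kilobase of exon on a log axis; points are libraries (blue labelled WT, red labelled KO) and black lines are group means. Itgb8 drops from 3.83 to 0.0252 while Itgav climbs from 25.1 to 59.6, and the points of Itgb1, Itgb5 and Itga5 lie close together in the 2 groups.

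Itgb8 (ENSMUSG00000025321.14, chromosome 12 from 119158022 to 119238802, minus strand, GENCODE M21 on GRCm38 as for all positions) encodes the beta8 chain, whose only known partner is alpha-v. It had 1274, 1387 and 1436 counts in WT-labelled libraries and 7, 14 and 10 in KO-labelled ones. Every library labelled KO thus lay above the floor of 3 counts and far under every library labelled WT. The levels were 42.3 ± 2.31 and 0.279 ± 0.0722 CPM, and the log2 fold change was -7.21 (standard error, SE, 0.11, edgeR adjusted p = 7.79e-14), or 149-fold lower. Only 3 of the 14289 genes tested had a lower fitted log2 fold change, an order that is loose where a group is near 0. The 31 counts summed over the KO-labelled libraries have an exact Poisson 95% interval of 21.1 to 44.0, or 0.191 to 0.400 CPM, which covers counting error only. No exon of another annotated gene overlaps those of Itgb8.

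Itgav (ENSMUSG00000027087.11, chromosome 2 from 83724397 to 83806916, plus strand) encodes the alpha-v chain that beta1, beta3, beta5 and beta8 share. It had 8489, 9012 and 8611 counts in WT-labelled libraries and 22188, 26759 and 21571 in KO-labelled ones. The 3 WT-labelled libraries lay within 269 and 271 CPM, and the lowest library labelled KO reached 627 CPM. The log2 fold change was 1.25 (SE 0.03, edgeR adjusted p = 2.48e-12), or 2.37-fold higher. Itgav was therefore the one member to rise, and the chain that beta8 depends on rose where Itgb8 fell. Of its 10744 bases of exon, 634 overlap a gene model on the opposite strand, and whether reads were counted by strand is not given in the sources used here.

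Itgb3 (ENSMUSG00000020689.4, chromosome 11 from 104608000 to 104670476, plus strand) encodes beta3, which with alpha-v forms the classical vitronectin receptor. It had 1434, 1420 and 1376 counts in WT-labelled libraries and 917, 1004 and 838 in KO-labelled ones, with no overlap at 42.4 to 45.8 CPM against 24.1 to 25.9 CPM. The log2 fold change was -0.80 (SE 0.05, edgeR adjusted p = 1.50e-08), or 1.74-fold lower. Itga2b, whose product is the platelet partner of beta3, was measured at 12.1 ± 0.145 and 15.4 ± 0.413 CPM and stayed under the fold limit at a log2 fold change of 0.35 (adjusted p = 1.79e-04 in edgeR).

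Itga8 (ENSMUSG00000026768.10, chromosome 2 from 12106632 to 12301922, minus strand) encodes alpha8, the beta1 partner that binds nephronectin. It had few reads, with 74, 105 and 81 counts in WT-labelled libraries and 20, 35 and 29 in KO-labelled ones. The groups did not overlap, at 2.68 ± 0.406 and 0.761 ± 0.171 CPM, and the log2 fold change was -1.81 (SE 0.19, edgeR adjusted p = 4.90e-06), or 3.51-fold lower. Its exons overlap an antisense gene model over 372 of 7368 bases. The 84 counts of the KO-labelled libraries have an exact Poisson 95% interval of 67.0 to 104 counts.

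The other 3 members, Itgb1, Itgb5 and Itga5, did not pass the fold limit. Itgb1 (ENSMUSG00000025809.15, chromosome 8 from 128685654 to 128733200, plus strand), the common beta chain of fibronectin, collagen and laminin receptors, was at 1845 to 1865 CPM in WT-labelled libraries and 1779 to 1815 CPM in KO-labelled ones. The groups did not overlap, yet the difference did not pass the test (log2 fold change -0.05, SE 0.03, edgeR adjusted p = 0.122), and its sign turned under upper-quartile scaling (0.01). Itgb5 (ENSMUSG00000022817.15, chromosome 16 from 33829665 to 33949338, plus strand), the other vitronectin receptor chain of alpha-v, was at 525 to 567 CPM and 472 to 506 CPM, a log2 fold change of -0.16 (SE 0.04, edgeR adjusted p = 0.00196).

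Itga5 (ENSMUSG00000000555.8, chromosome 15 from 103344286 to 103366763, minus strand), the alpha chain of the fibronectin receptor, overlapped between the groups. It was at 253, 228 and 216 CPM in WT-labelled libraries and 217, 212 and 208 CPM in KO-labelled ones, so that the first of the WT-labelled libraries lay above the rest. Its log2 fold change of -0.13 (SE 0.05) had an edgeR adjusted p of 0.0345, which rose to 0.131 without that library, to 0.0566 without the second labelled WT, and to 0.0805 and 0.0692 without the second and the third labelled KO. For Itgb1, Itgb5 and Itga5 alike, the estimated change was no more than 1.12-fold.

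A call required both an edgeR adjusted p under 0.05 and a 1.5-fold difference or more. By this rule, 4 of the 7 members were called, 1 higher and 3 lower, where 17.7% of all tested genes were called, 11.6% higher and 6.10% lower. By adjusted p alone 6 of 7 passed, beside 58.7% of all genes. The groups did not overlap for 6 of 7, beside 64.2% of all genes. The median log2 fold change was -0.16 over the members and 0.00 over all genes tested. Since 58.7% of all genes differ at this p, a passing p by itself sets no member apart, and the sizes of the changes carry the description. The members and the lists below were chosen with earlier results of these data known. Their shares called, set beside 17.7%, are therefore descriptions and not tests.

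Among the 12 other integrin subunits listed, all of them tested, 5 were called, beside 17.7% of all genes tested. Those called were 4 higher (Itga11, Itga6, Itgb4 and Itga2) and 1 lower (Itga9), and the median log2 fold change of the 12 was 0.42. Of the remaining subunits of RGD-binding integrins, Itga2b is given above. Itgb6 is not among the genes listed, so no level is given for it. Per kilobase of exon, the listed alpha chains in WT-labelled libraries were led by Itga5 (47.1 CPM), Itga3 (32.4), Itga1 (30.7) and Itgav (25.1). In those labelled KO, Itgav led (59.6), followed by Itga11 (44.0), Itga5 (43.0), Itga1 (37.0) and Itga3 (28.9). Itga11, a collagen-binding partner of beta1, joined this group from 3.56 CPM per kilobase, a log2 fold change of 3.63 (SE 0.04, adjusted p = 3.75e-15 in edgeR). The laminin-binding Itga6 rose with a log2 fold change of 1.77, and Itga9, a receptor chain for tenascin-C, fell by 1.10 on the log2 scale. Itgb4 and Itga2 had at most 45 counts in any library. The count of 5 became 4 with DESeq2 and in some fits with a single library left out. The order of the alpha chains rests on merged exon length, for Itga1 18599 bases against 10967 in its longest transcript. No order by longest transcript was made.

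**Figure D2:**
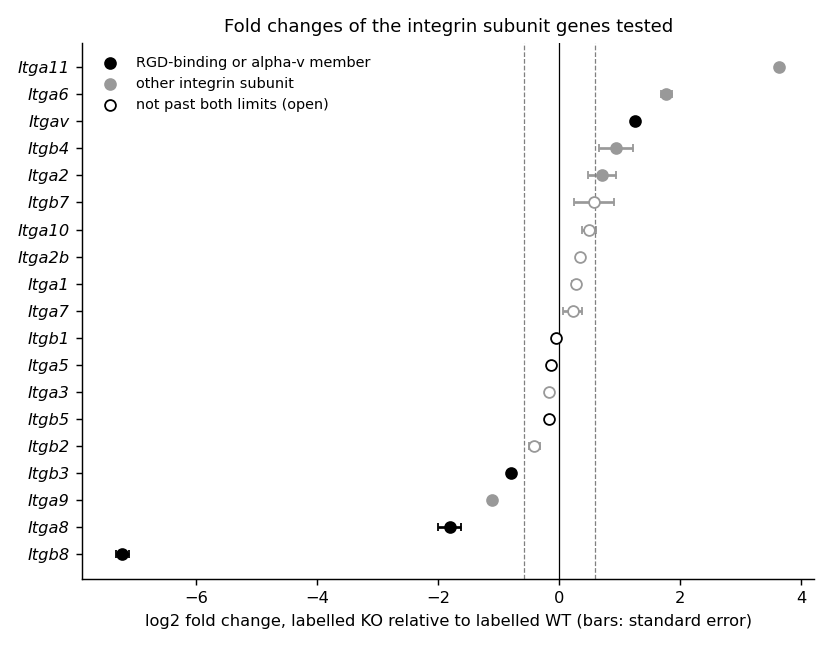
Log2 fold change of the 19 integrin subunit genes tested, labelled KO relative to labelled WT, with SEs as bars and the 1.5-fold limits as dashed lines; black marks members, grey the other subunits, and filled points passed both limits. Itgb8 at -7.21 stands apart from all others, Itga11 at 3.63 is the highest, and Itgb1, Itga5 and Itgb5 lie between the dashed lines.

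The make-up of the family was described within each library, where the ratio of subunits does not depend on scaling between libraries. Among the 4 beta partners of alpha-v listed, summed per kilobase of exon, Itgb1 took 73.5 ± 0.722% in WT-labelled libraries and 75.8 ± 0.546% in KO-labelled ones (SD, n = 3 each). Itgb5 took 24.7 ± 0.731% and 23.5 ± 0.545%, and its groups overlapped. The share of Itgb3 was 1.197 ± 0.0342% against 0.733 ± 0.0190%, and that of Itgb8 was 0.619 ± 0.0380% against 0.00435 ± 0.00118%. An exact two-sided permutation test gave p = 0.1 for Itgb1, Itgb3 and Itgb8 and 0.2 for Itgb5 (0.133 and 0.2 after Benjamini-Hochberg adjustment over the 4), and 0.1 is the smallest p that 3 against 3 allows. The Itgb8 share was lower in all 3 KO-labelled libraries than in any WT-labelled one, and no p under 0.05 was possible.

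Among the RGD-binding alpha chains Itgav, Itga5, Itga2b and Itga8, the share of Itgav was 31.9, 33.9 and 35.2% in WT-labelled libraries and 55.5, 56.6 and 57.4% in KO-labelled ones. The share of Itga5 went the other way, from 62.9 ± 1.85% to 40.7 ± 1.02%, and that of Itga8 was 0.488 ± 0.0859% and 0.0978 ± 0.0216%. A share falls when another in the sum rises. The level of Itga5 itself was 232 ± 19.3 and 212 ± 4.38 CPM, with overlapping groups. The ratio of Itgav to Itga5 per kilobase of merged exon was 0.536 ± 0.0420 in WT-labelled libraries and 1.39 ± 0.0576 in KO-labelled ones. Against the sum of Itgb3, Itgb5 and Itgb8, which apart from beta3 pair with alpha-v alone, Itgav stood at 0.153 ± 0.00532 and 0.424 ± 0.0241. Of that sum, Itgb5 made up 93.1 ± 0.252% and 97.0 ± 0.0990%, and Itgb8 2.34 ± 0.205% and 0.0180 ± 0.00517%. These ratios were chosen after the values had been seen and are given without a test. The alpha shares and these ratios were not computed with another measure of length.

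**Figure D3:**
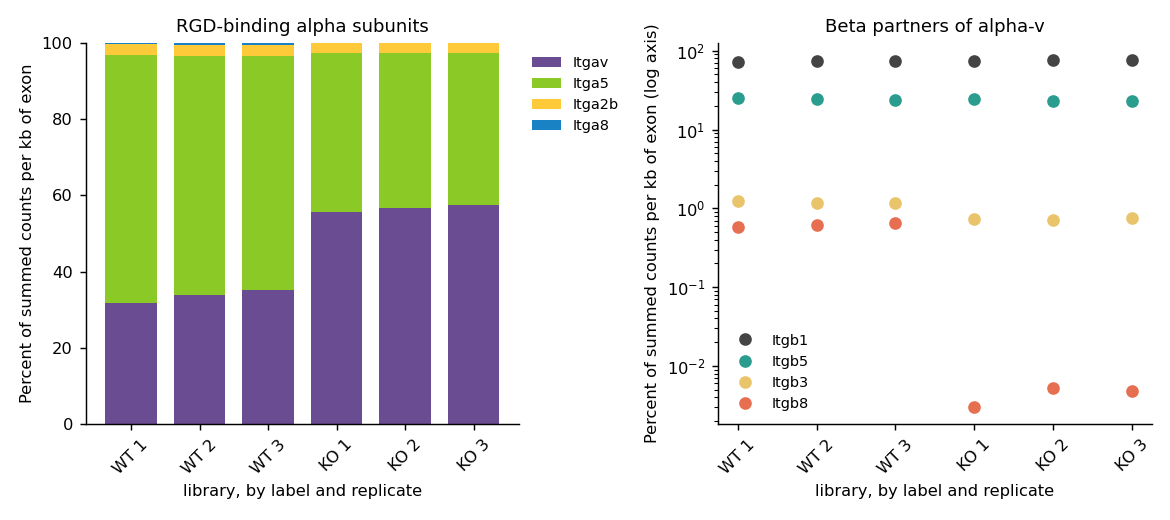
Left, share of each RGD-binding alpha subunit gene in their summed counts per kilobase of exon, as stacked bars for each library; right, share of each beta partner of alpha-v, as points on a log axis. Itgav takes 31.9 to 35.2% in the bars labelled WT and 55.5 to 57.4% in KO-labelled ones, while the Itgb8 points drop from about 0.619% to about 0.00435%.

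The ligands of these receptors went both ways. Of 33 genes listed as integrin ligands, 22 were tested, and whether each carries an RGD motif was not checked. Of the 22, 13 were called, 9 higher and 4 lower, beside 17.7% of all genes tested. Their median log2 fold change was -0.01. Fibronectin (Fn1), the ligand of alpha5 with beta1 and of alpha-v, was at 11843 ± 860 and 10990 ± 717 CPM and did not pass the test (log2 fold change -0.11, edgeR adjusted p = 0.0909). Vitronectin (Vtn) had 12, 10 and 13 counts in WT-labelled libraries and 1, 0 and 0 in KO-labelled ones and was not tested. Npnt, which encodes nephronectin, the ligand of alpha8, was higher with 1037, 1140 and 1037 counts against 4366, 5060 and 4104, a log2 fold change of 1.89 (SE 0.03, adjusted p = 3.17e-13 in edgeR), the opposite direction to Itga8.

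Tgfbi, a secreted RGD protein induced by TGF-beta, had the largest fitted change among ligands that reached 100 counts in each library of whichever group was higher (log2 fold change 2.38). Egfl7 and the matricellular genes Ccn3 and Ccn1 rose as well, with log2 fold changes of 2.20, 2.17 and 1.31. Spp1, which encodes the alpha-v ligand osteopontin, fell by 1.33 on the log2 scale (SE 0.18, adjusted p = 4.23e-05 in edgeR), from 10.3 ± 1.63 to 4.16 ± 1.44 CPM. The wells labelled WT and KO came closest there, at 290 and 205 counts. Fn1 and Vtn were picked for their place as ligands, with their values known.

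Genes listed as adhesion adaptors of integrins seldom passed the fold limit. Of 46 adaptor genes tested, such as talin, kindlin, vinculin, paxillin and focal adhesion kinase, 2 were called, both higher (Apbb1ip and Lpxn), beside 17.7% of all genes. An adjusted p under 0.05 was reached by 31, beside 58.7% of all genes, and the median log2 fold change was 0.06. Apbb1ip, which encodes the RIAM protein that brings talin to the membrane, had a log2 fold change of 0.65 (SE 0.04, adjusted p = 2.81e-08 in edgeR). Lpxn had few reads, with 14, 12 and 19 counts in WT-labelled libraries and 31, 31 and 31 in KO-labelled ones (edgeR adjusted p = 0.0106). The count of 2 became 1 without the second library labelled WT and 4 without the first labelled KO. Tln1, which encodes talin, had a log2 fold change of -0.13, Fermt2 (kindlin) 0.10 and Vcl (vinculin) 0.08, all named for their role and chosen after their values were seen.

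Genes around latent TGF-beta, the cargo of alpha-v with beta8, were examined from a list of ligands, latency proteins, receptors and early targets. Of the 23 tested, 3 were called, 1 higher (Ltbp4) and 2 lower (Lrrc32 and Ldlrad4), beside 17.7% of all genes tested. The median log2 fold change was -0.12, and the count called became 5 without the first library labelled WT. Under upper-quartile and total-count scaling the 3 calls were 2 higher and 1 lower. Ltbp4, a latent TGF-beta binding protein of elastic fibres, had 976, 1047 and 966 counts against 13238, 15222 and 12596, a log2 fold change of 3.60 (SE 0.03, adjusted p = 3.11e-15 in edgeR). Lrrc32 encodes GARP, a membrane anchor that presents latent TGF-beta to alpha-v with beta8, and it was at 4.91 ± 0.376 and 3.23 ± 0.501 CPM, a log2 fold change of -0.60 at the edge of the fold limit. Ldlrad4, an inhibitor of TGF-beta signalling, fell by 0.73 on the log2 scale.

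The ligand genes themselves stayed under the fold limit: Tgfb1 had a log2 fold change of 0.50, Tgfb2 of -0.35 and Tgfb3 of 0.30, each with an adjusted p under 0.05. Ltbp1, which stores latent TGF-beta in the matrix, was at 1846 ± 29.6 and 2238 ± 23.4 CPM. The early targets Smad7 (log2 fold change 0.28), Skil (0.08), Pmepa1 (-0.55) and Tgif1 (-0.32) lay on either side of 0 and did not pass the fold limit, and Skil did not pass the test either (adjusted p = 0.0684 in edgeR). These genes are named as parts of the pathway and were chosen after their values were seen.

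**Figure D4:**
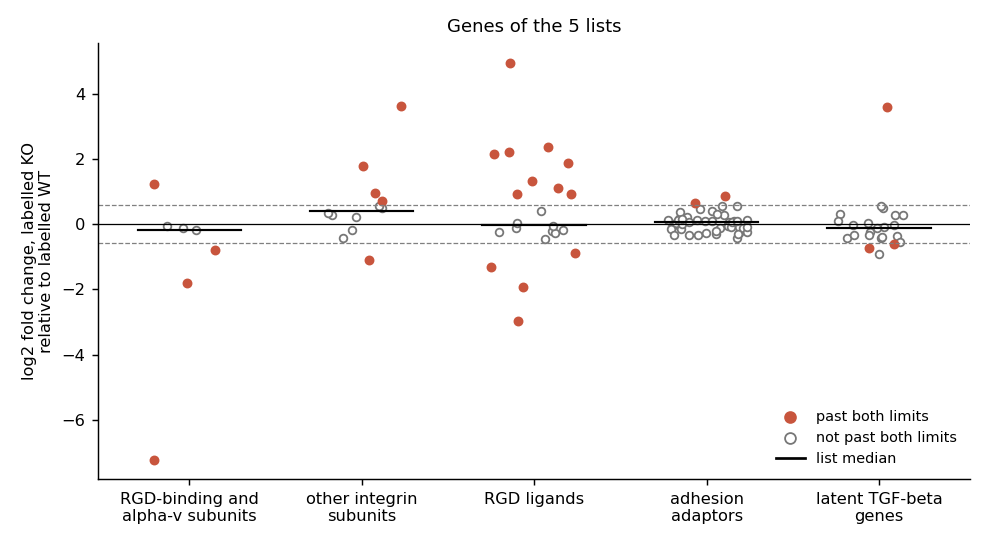
Log2 fold change, labelled KO relative to labelled WT, of every tested gene of the 7 members and of the other lists. These are other integrin subunits, integrin ligands (marked RGD ligands), adhesion adaptors and latent TGF-beta genes. Red points passed both limits, open points did not, black lines are medians and dashed lines the 1.5-fold limits. Adaptors sit close to 0 with 2 of 46 past the limits, while 13 of 22 ligands lie beyond them, beside 17.7% of all genes tested. The lists were chosen with earlier results of these data known. The highest ligand point, Igfbp2, had 1 to 3 counts in WT-labelled libraries, so its height is not a bound.

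The genes closest in pattern to the 4 members called were found by the root mean square difference of mean-centred log2 CPM over the 6 libraries. Thbd and Cdh3 lay nearest to Itgav (0.0232 and 0.0256) and shared its size of change, with log2 fold changes of 1.28 and 1.26. Lrrc75b and Adam19 lay nearest to Itgb3 (0.0267 and 0.0327). The neighbours of Itga8 were the gene model Gm36569 and Zfp820 (0.124 and 0.131). Those of Itgb8, Ahsg and Cyp2d22, lay at 0.403 and 0.417, and Itgb8 and both of these genes are near or at 0 counts in the KO-labelled libraries. With 2 groups of 3 libraries, likeness of this kind reflects mainly the size of the difference between groups.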

How the data were processed

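RNA was isolated from confluent wells, and poly-A libraries were prepared with an NEB Ultra kit. Per the labels, reads were aligned to GRCm38.p6 with STAR 2.7.2b and counted with featureCounts; the annotation and strand setting are not given in the sources used here. The authors deposited raw read counts per gene and log2 CPM that limma's voom had produced, 1 column for each library, and genes with low counts are absent from both tables.

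The test on all genes was that of edgeR 4.0.16, run in R 4.3.3 (TMM factors, filterByExpr, quasi-likelihood F test, Benjamini-Hochberg adjustment over 14289 genes), by genotype label, with standard errors taken from the fold change and its F statistic. Replicates were numbered in accession order, which pairs no samples. On simulated counts with 200 of 14105 genes changed by 2-fold or more, 200 were recovered with 1 false call. The simulation gave all genes a common dispersion and changed no genes with few counts. It therefore does not bear on calls from few counts or near the 1.5-fold limit. Totals of 31728420 to 41035931 counts put the floor of 3 counts at 0.0720 to 0.0957 CPM. Exon lengths and positions came from GENCODE M21 (14822 of 14831 identifiers matched without the version), promoter windows from RefSeq, and shares were compared by exact permutation in SciPy 1.17.1. Alternatives covered scaling (RLE, total counts, upper quartile), the filter, the fold limit, the tool (DESeq2 1.42.0, limma-voom, limma 3.58.1 on the deposited log2 values), other length measures, and leaving out each library.

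The members and lists were chosen with earlier results of these data known. Named are the members, Gli2 and Gli3, the remaining RGD-binding subunits, up to 6 called genes of each list that reached 100 counts in each library of whichever group was higher, by size of change, the 2 nearest genes of each called member, and the exceptions stated.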

Additional observations from a re-analysis of the deposited data

How the results depend on the processing

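The calls of Itgav, Itgb3, Itgb8 and Itga8 kept their direction and an adjusted p under 0.05 under every alternative that tested them, while at 2-fold 3 of the members were called and with no fold limit 6; Itgb8 was not tested where 10 counts were required in every library. Their log2 fold changes ranged from 1.23 to 1.30 for Itgav, -0.83 to -0.74 for Itgb3, -7.39 to -7.03 for Itgb8 and -1.91 to -1.65 for Itga8. Itgb1 turned to 0.0089 under upper-quartile scaling (adjusted p = 0.792), and Itga5 lost its adjusted p under 0.05 at -0.0735 with upper-quartile scaling, at -0.10 with total counts, and in 4 of the 6 fits with a single library left out. Over all 6 of these its log2 fold change ranged from -0.183 to -0.0648. The fold limit set the counts: without it 8391 genes, 10 other integrin subunits, 31 adaptors and 17 latent TGF-beta genes passed, and at 2-fold 1456, 3, 0 and 1. With single libraries left out the adaptors called ranged from 1 to 4 and the latent TGF-beta genes from 3 to 5. The other integrin subunits called ranged from 4 to 5 in these fits. Upper-quartile and total-count scaling gave 4 adaptors. DESeq2 gave 1 adaptor and 4 other integrin subunits, and limma-voom gave 5 latent TGF-beta genes. Without division by exon length, the difference in beta share was 3.19 percentage points for Itgb1, -0.67 for Itgb3 and -1.69 for Itgb8, and with the longest transcript -0.75 for Itgb8. The causes were not tested. No paired analysis was possible because the labels give no replicate numbers. Depth limits the values of Itgb8 and Itga8 in the libraries labelled KO.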
